A study of Mus musculus with 18 samples.

Results

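The dual-specificity mitogen-activated protein kinase (MAPK) phosphatases were followed through 9 genes, Dusp1, Dusp2, Dusp4, Dusp5, Dusp6, Dusp7, Dusp10, Dusp14 and Dusp16, taken by gene symbol from the 37991 genes counted in each of 18 RNA-seq libraries of mouse CD4+ T cells. All 9 were expressed well enough to be tested. Stimulation of the cells raised most of them, but not together: in naive cells an injection of antigen (NAg:N0) raised 6 and lowered 3, where 32.1% of all tested genes rose and 33.4% fell, and the pharmacological stimulus (NPI:N0) raised 8 and lowered 1, where 28.6% rose and 32.7% fell.

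The MAPKs ERK, JNK and p38 carry signals from the T cell receptor (TCR) to the nucleus, and they are active while both a threonine and a tyrosine of their activation loop are phosphorylated. A dual-specificity phosphatase removes both phosphates and ends the signal. Many of these genes are themselves switched on by MAPK signalling, so that the phosphatases form a negative feedback loop. Dusp1, Dusp2, Dusp4 and Dusp5 encode inducible nuclear enzymes, Dusp6 and Dusp7 cytoplasmic enzymes selective for ERK, Dusp10 and Dusp16 enzymes that act mainly on JNK and p38, and Dusp14 a small atypical enzyme that lacks the N-terminal MAPK docking domain of the others.

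All mice were of the Tg4-H2u strain, which carries a transgenic TCR for a peptide of myelin basic protein, were 6 to 12 weeks old and of both sexes. One set of mice had been made tolerant by repeated subcutaneous doses, in rising amounts, of the 4Y peptide (T), and the control set had received PBS on the same schedule, so that its cells were mostly naive (N). A last injection 2 h before harvest was PBS (N0 and T0) or 4Y peptide (NAg and TAg), and CD4+ T cells were then enriched from the spleen with a magnetic kit. In the remaining groups cells of both kinds were treated in culture for 2 h with PMA and the calcium ionophore A23187 (NPI and TPI, "PI"), agents that act downstream of the TCR. Each of the 6 groups had 3 labelled replicates. Whether a replicate was 1 animal or a pool is not given in the sources used here, so p-values measure only the spread between these libraries. No library of cells cultured without PI was compared, so the effect of PI and that of the culture cannot be told apart. In bulk RNA a change in the number of cells of a type and a change in RNA per cell cannot be told apart either.

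Total counts ranged from 10758571 to 24119489 per library, with the deepest libraries after PI, and the summed level of 7 T cell markers (Cd3e, Cd3d, Cd3g, Cd4, Cd5, Lck and Cd28) spanned 28717 to 29902 normalized counts in N0, 24890.1 to 30103 in T0, 15031 to 16706 in NAg, 19496 to 22943 in TAg, 49187 to 54877 in NPI and 54004 to 56963 in TPI. The T cell markers thus moved with the stimuli compared, with 6 of 7 lower in NAg:N0, where 33.4% of all tested genes fell. Their part in the results was not tested. The higher sums after PI came mostly from Cd28, with a mean of 4260 in N0, 26002 in NPI and 26034 in TPI. In NPI:N0 4 of the 7 markers rose and 3 fell, where 28.6% and 32.7% of all tested genes did. Transcripts of neutrophils moved with tolerance: the summed level of 9 markers spanned 74.4 to 183 normalized counts in N0 and 1756 to 3139 in T0, 137 to 395 in NAg and 2297 to 4132 in TAg, and 63.7 to 172 in NPI and 396 to 673 in TPI. All 9 rose in T0:N0 and in TAg:NAg and 6 in TPI:NPI, where 8.42%, 20.9% and 18.2% of all tested genes did. In NPI:N0 6 of the 9 fell and 2 rose, where 32.7% and 28.6% of all tested genes did. The mean of Ngp, Ltf and Camp was 0 in NPI, while Mpo went from 25.8 in N0 to 85.5 in NPI and Elane from 3.36 to 12.5. Mpo averaged 388 in TPI, the largest part of the sum there. Macrophage markers reached 1756 in 1 NAg library and stayed at or under 512 in the others. The B cell marker sum was 1905 in N0 replicate 1 against 322 and 378 in replicates 2 and 3. It reached 2693 in T0 replicate 1 and 1522 in NAg replicate 3. Erythroid markers reached 2469 in T0 replicate 1 and 2121 in TAg replicate 3. The part of the B cell markers in the results was not tested. Reads on Y-linked genes were found in 9 libraries, all 6 of the PI groups, 2 of T0 and 1 of TAg, with at least 5111 reads against at most 18 in the rest. All of N0 and NAg lacked them and all of NPI had them. Within NPI:N0 and NPI:NAg the effect of PI and that of the sex of the mice thus cannot be told apart. The difference in PI response between the cell states contains NPI:N0, so the sex of the mice enters it too. In T0:N0, TAg:NAg, TAg:T0, TPI:T0 and TPI:TAg the groups also differed in the number of libraries with such reads. A normalized count is a raw count divided by the library's relative size after TMM scaling, and log2 fold changes are given with their standard error (SE) and a Benjamini-Hochberg adjusted p over 17240 genes from edgeR's quasi-likelihood test.

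The genes lie apart from each other in the genome, on chromosomes 17 (Dusp1), 2 (Dusp2), 8 (Dusp4), 19 (Dusp5), 10 (Dusp6), 9 (Dusp7), 1 (Dusp10), 11 (Dusp14) and 6 (Dusp16). On NCBIM37, the build used for counting, Dusp1 spans chr17:26642535-26645464 on the minus strand, Dusp5 chr19:53603599-53616921 and Dusp6 chr10:98725865-98730122, both on the plus strand. The spliced exon length ran from 1945 bases for Dusp14 to 7653 for Dusp16. Dusp10 was the only member overlapped by another gene, 1700056E22Rik, which runs on the opposite strand across 543 bases and shares 0 exon bases with it.

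Because most members moved within 2 h of a stimulus, the stretch before their start sites is shown for 4 that differ in pattern, with motifs of signal-activated factors in capitals. The sequences are those of RefSeq on GRCm38.p6, which had a promoter entry for 8 members. Dusp1 (chr17:26508473-26508622, minus strand) has a cyclic AMP response element in capitals, Dusp2 (chr2:127336009-127336158, plus strand) an EGR motif, Dusp5 (chr19:53529045-53529144, plus strand) a pair of adjoining CArG boxes, the binding motif of serum response factor, and Dusp6 (chr10:99263081-99263230, plus strand) none of the motifs searched.
Dusp1: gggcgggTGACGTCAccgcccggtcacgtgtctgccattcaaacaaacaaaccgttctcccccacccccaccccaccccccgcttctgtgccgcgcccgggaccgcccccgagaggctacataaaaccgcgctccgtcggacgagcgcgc
Dusp2: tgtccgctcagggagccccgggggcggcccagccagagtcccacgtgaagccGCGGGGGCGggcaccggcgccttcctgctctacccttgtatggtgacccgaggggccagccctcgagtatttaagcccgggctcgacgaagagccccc
Dusp5: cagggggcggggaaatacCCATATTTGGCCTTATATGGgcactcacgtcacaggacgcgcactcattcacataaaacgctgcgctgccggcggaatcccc
Dusp6: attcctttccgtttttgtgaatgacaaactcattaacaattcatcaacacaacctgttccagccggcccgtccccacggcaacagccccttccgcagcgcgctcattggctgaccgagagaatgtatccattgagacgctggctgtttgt

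The search covered both strands of windows from 250 bases before to 50 after the start site, of which there were 32851 for all genes. The element TGACGTCA was found in 1 of the 8 member windows (Dusp1, bases -143 to -136 from the start) and in 1.79% of all windows. GCGNGGGCG, the EGR motif, was in 2 (Dusp2, bases -98 to -90, and Dusp16, bases -138 to -130 on the opposite strand), against 5.55% of all. The CArG box was in 1, Dusp5, where the 2 copies span bases -82 to -73 and -72 to -63, and in 1.63% of all windows. No member window held TGANTCA (AP-1, 7.81% of all), GGAAAA (NFAT, 23.4%), the NF-kB motif (4.51%), AAAGGTCA (NR4A, 1.51%) or CCGGAAG (ETS, 8.86%). These are matches of letters in a short window and nothing was measured on binding.

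**Figure D1:**
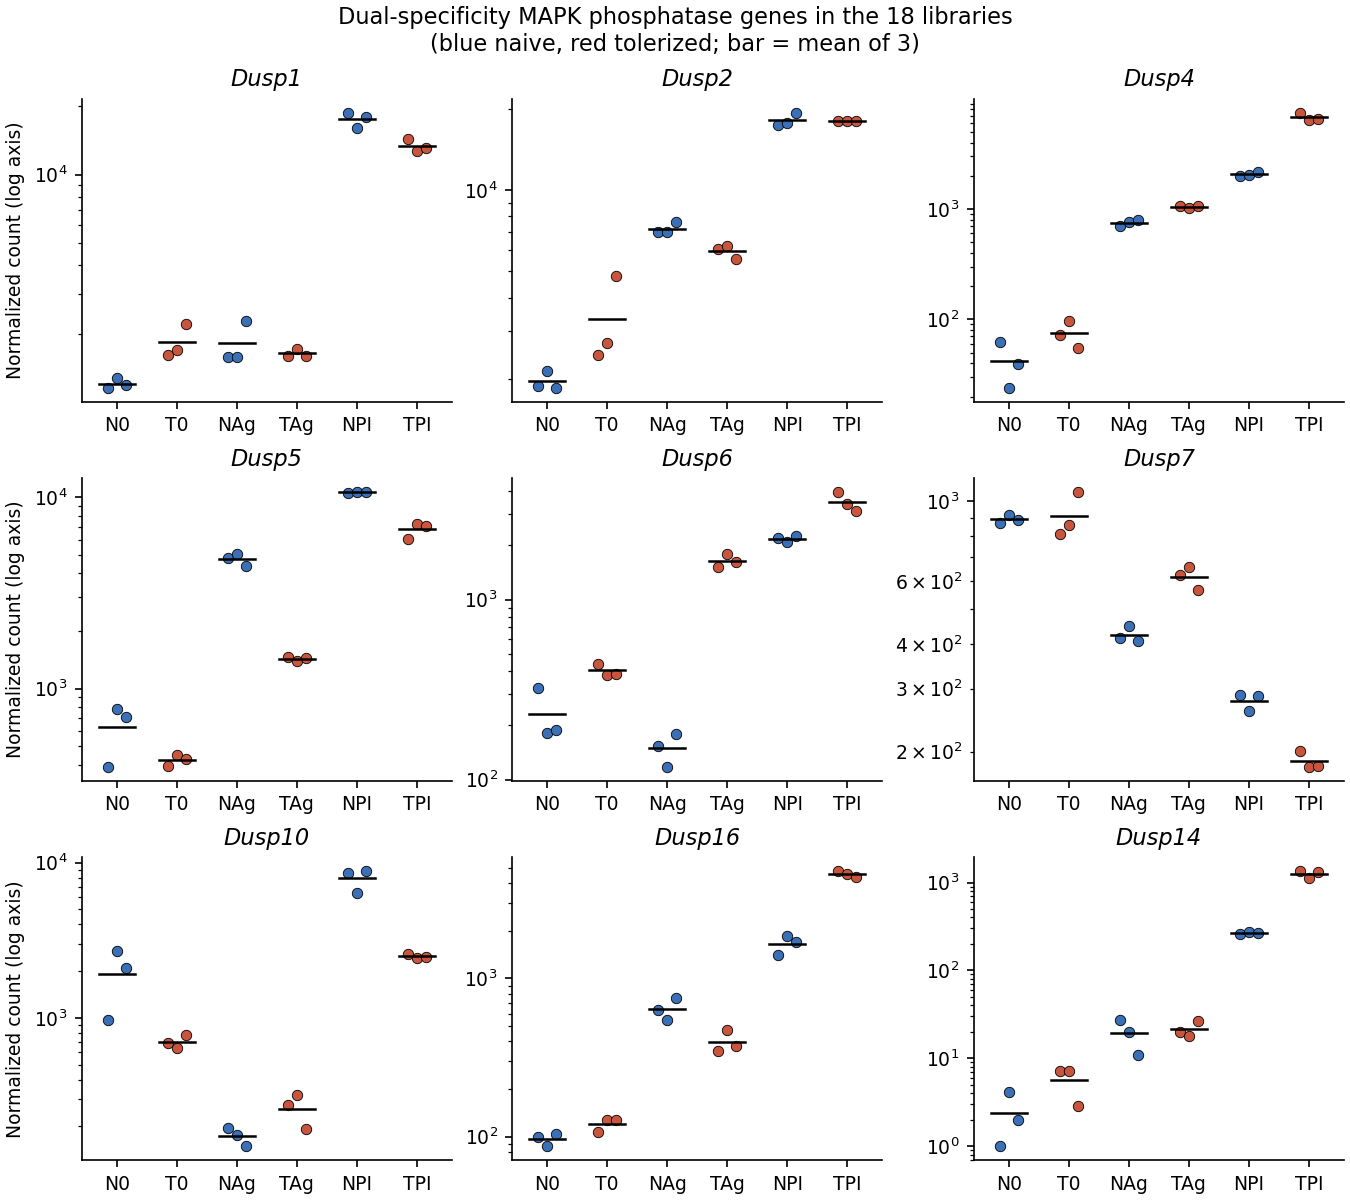
Normalized counts of the 9 genes in each of the 18 libraries, on a log axis, by group (blue naive, red tolerized), with the mean of 3 replicates as a bar. The 3 libraries of NAg and of TAg lie far apart for Dusp5 and Dusp6, in opposite order, and the PI groups have the highest means for all genes but Dusp7.

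Summed over the 9 genes and divided by exon length, the phosphatase transcripts came to 2687 ± 423 normalized counts per kb in N0 (mean ± SD, n = 3 libraries here and throughout), 3211 ± 819 in T0, 6793 ± 221 in NAg, 5452 ± 238 in TAg, 24450 ± 1198 in NPI and 22550 ± 493 in TPI. Dusp2 was the most abundant member per kb in every group, with 36.3% of the sum in N0 and 54.4% in TAg. The rank below it changed with the state of the cells. Dusp10 held the next place in N0 with 23.5% and fell to 0.839% in NAg, where Dusp5 took it with 28.2%. In TAg the share of Dusp5 was 10.6% and that of Dusp6 10.7%, whereas Dusp6 held 0.792% in NAg. Dusp14 and Dusp16 together stayed low, with the largest shares in TPI at 2.87% and 2.65%.

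**Figure D2:**
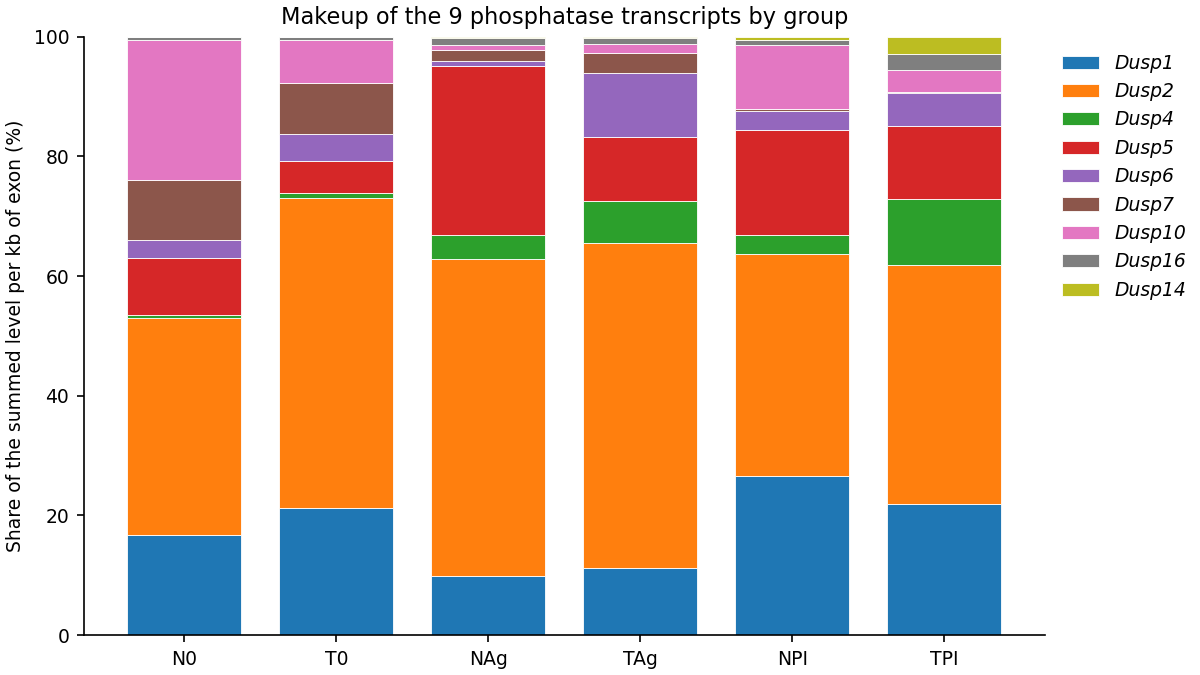
Share of each gene in the summed level per kb of exon, in percent, from the group means of 3 libraries. Dusp2 and Dusp1 fill most of every bar, Dusp10 is wide in N0 and narrow after Ag, and Dusp5 is wider in NAg than in TAg.

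Dusp1, an immediate-early phosphatase of p38, JNK and ERK, responded to PI and hardly to Ag. Its normalized counts were 1160.0, 1275 and 1191 in the 3 N0 libraries and 1619.5, 1702 and 2209 in T0. After Ag they were 1589, 1589 and 2275 in NAg and 1596, 1724 and 1602 in TAg. T0, NAg and TAg overlapped one another and all lay above N0. PI took the counts to 18706, 16089 and 17804 in NPI and 14357, 12649 and 13067 in TPI, the naive libraries above all the tolerized ones. The log2 fold change was 0.59 ± 0.13 in NAg:N0 (adjusted p = 0.00051) and -0.17 ± 0.13 in TAg:T0 (adjusted p = 0.27), against 3.86 ± 0.14 in NPI:N0 (adjusted p = 3.9e-14) and 2.86 ± 0.13 in TPI:T0 (adjusted p = 8.5e-13). Both responses were smaller in tolerized cells, the one to Ag by -0.76 ± 0.18 (log2 difference, adjusted p = 0.0053) and the one to PI by -1.001 ± 0.18 (adjusted p = 0.00049). The resting level itself was higher in T0 (T0:N0 0.61 ± 0.13, adjusted p = 0.0026), and after PI it was lower in tolerized cells (TPI:NPI -0.39 ± 0.12, adjusted p = 0.017). That last call was lost when NPI replicate 1, TPI replicate 2 or TPI replicate 3 was left out, with adjusted p = 0.066, 0.065 and 0.056.

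Dusp2, a nuclear phosphatase first known from activated lymphocytes, rose after either stimulus. It was counted at 1878, 2134 and 1850.4 in N0 and at 2454, 2719 and 4825 in T0, where replicate 3 stood well above the others. T0 replicate 3 alone in its group lacked Y-linked reads, as did all of N0. Leaving it out sets T0 libraries with such reads against N0 libraries without them. After Ag the values were 6983, 7025 and 7613 in NAg and 6067, 6202 and 5539 in TAg, all of NAg above all of TAg. After PI they were 17481, 17715 and 19409.5 in NPI and 18009.9, 18109.7 and 18013 in TPI, which overlapped. Ag changed it by 1.88 ± 0.19 in naive cells (adjusted p = 3.3e-07) and by 0.83 ± 0.18 in tolerized cells (adjusted p = 0.001), a difference in response of -1.05 ± 0.26 (adjusted p = 0.0089) that shrank to -0.66 without T0 replicate 3 (adjusted p = 6.4e-05). PI raised it by 3.22 ± 0.19 and 2.44 ± 0.19 (adjusted p = 1.9e-09 and 2.2e-08). The resting levels differed by 0.77 ± 0.18 (adjusted p = 0.0087), or by 0.40 without T0 replicate 3 (adjusted p = 0.001), and TAg:NAg and TPI:NPI did not pass the test (adjusted p = 0.24 and 0.97).

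Dusp4, a nuclear relative of Dusp1, was low at rest and had one of the widest ranges of the family. N0 libraries held 62.4, 24.0 and 39.7 normalized counts and T0 libraries 72.5, 97.2 and 54.7, ranges that overlapped. After Ag there were 705, 764 and 791 in NAg and 1055, 1022 and 1066 in TAg, the tolerized libraries all higher. After PI the gap widened, with 1972, 2043 and 2151 in NPI and 7461, 6365 and 6535 in TPI. Every one of these 4 stimulated groups lay clear of rest and of each other. The rise with Ag was 4.15 ± 0.20 in naive and 3.80 ± 0.18 in tolerized cells (adjusted p = 4e-12 and 4.6e-12), which did not pass the test for a difference (adjusted p = 0.44). That difference of -0.35 ± 0.28 changed with the N0 libraries used, and was -0.73 without N0 replicate 1 (adjusted p = 0.039) and -0.059 without N0 replicate 2. That of PI was 5.60 ± 0.19 and 6.50 ± 0.18 (adjusted p = 1.6e-13 and 5.8e-15). Tolerized cells held more Dusp4 after Ag (TAg:NAg 0.48 ± 0.14, adjusted p = 0.014) and after PI (TPI:NPI 1.72 ± 0.14, adjusted p = 5.3e-08), and the gap after PI exceeded that after Ag by 1.25 ± 0.20 (adjusted p = 7.9e-05). At rest T0:N0 was 0.83 ± 0.24 (adjusted p = 0.024) and 0.55 without N0 replicate 2. The call was lost when N0 replicate 2 or 3 or T0 replicate 1 or 2 was left out, at most to adjusted p = 0.11.

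Dusp5, a nuclear enzyme specific for ERK, followed Ag in naive cells more than in tolerized cells. Resting libraries held 389, 786 and 709 in N0 and 394, 449.6 and 429.7 in T0, where N0 replicate 1 lay below every T0 library. Ag brought them to 4800.1, 5032 and 4375 in NAg and 1459, 1396 and 1453 in TAg. No TAg library came near NAg, and the lowest NAg value was about 3 times the highest TAg value. PI gave 10556, 10631 and 10639 in NPI and 6037, 7269 and 7061 in TPI, again with all naive libraries higher. The Ag response was 2.92 ± 0.18 in naive and 1.76 ± 0.18 in tolerized cells (adjusted p = 9.8e-10 and 5e-07), different by -1.16 ± 0.25 (adjusted p = 0.0036). The PI response was 4.08 ± 0.19 and 4.00 ± 0.19 (adjusted p = 5.9e-11 and 4.9e-11), and its difference between the cell states was -0.08 ± 0.24 (adjusted p = 0.87). TAg:NAg was -1.72 ± 0.17 (adjusted p = 2e-06), TPI:NPI -0.64 ± 0.16 (adjusted p = 0.0056) and T0:N0 -0.56 ± 0.18 (adjusted p = 0.04). The T0:N0 call was lost on leaving out any T0 library or N0 replicate 2 or 3, at most to adjusted p = 0.17.

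Dusp6, a cytoplasmic phosphatase selective for ERK, was the member with the reverse of that pattern. It stood at 323, 183 and 189 normalized counts in N0 and 441, 382 and 387 in T0. After Ag the naive libraries held 155, 117 and 179, all under N0, and the tolerized libraries 1517, 1781 and 1615, all above T0. NAg was thus the lowest of the 6 groups for Dusp6. PI raised it in both cell states, to 2202, 2085 and 2242 in NPI and 3955, 3390.4 and 3083 in TPI. The log2 fold change with Ag was -0.62 ± 0.21 in naive cells (adjusted p = 0.016, or 0.073 without NAg replicate 2) and 2.02 ± 0.17 in tolerized cells (adjusted p = 4.9e-08), a difference of 2.64 ± 0.27 (adjusted p = 6.1e-06). The naive value was -0.35 without N0 replicate 1, the highest resting naive library (adjusted p = 0.033), and with marker levels of other cells as covariates its adjusted p was 0.061. With PI it was 3.23 ± 0.18 and 3.11 ± 0.18 (adjusted p = 4.7e-10 and 2.9e-10), with a difference of -0.12 ± 0.24 (adjusted p = 0.79). The tolerized state held more Dusp6 at rest (0.80 ± 0.19, adjusted p = 0.0071), after Ag (3.44 ± 0.19, adjusted p = 4.4e-09) and after PI (0.68 ± 0.16, adjusted p = 0.0033), and the gap after PI was smaller than that after Ag by -2.76 ± 0.25 (adjusted p = 4.4e-07). With the same marker covariates the gap was 0.017 at rest and 0.31 after PI (adjusted p = 0.64), and neither was a call. In a fit to the resting libraries alone the resting gap was 0.87 (adjusted p = 0.055).

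Dusp7, the close cytoplasmic relative of Dusp6, was the member that fell with every stimulus. Its libraries held 871, 919 and 888 in N0 and 809, 859 and 1064 in T0, which overlapped. They went down to 415, 448 and 407 in NAg and 623, 656 and 565 in TAg, and further to 287, 259.5 and 286 in NPI and 201, 181 and 183 in TPI. Each of the 4 stimulated groups was separate from rest and from the others. The changes were -1.08 ± 0.09 in NAg:N0, -0.57 ± 0.09 in TAg:T0, -1.68 ± 0.10 in NPI:N0 and -2.27 ± 0.10 in TPI:T0 (adjusted p = 2.4e-10, 7.5e-06, 2.4e-13 and 7.4e-16). Tolerized cells lost less than naive cells with Ag (difference 0.51 ± 0.13, adjusted p = 0.0062) and more with PI (-0.59 ± 0.14, adjusted p = 0.0029). TAg:NAg was accordingly 0.54 ± 0.09 and TPI:NPI -0.56 ± 0.10 (adjusted p = 8.3e-05 and 0.00011), and T0:N0 was 0.03 ± 0.09 (adjusted p = 0.87).

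Dusp10, which acts on JNK and p38, moved in opposite directions with the 2 stimuli. At rest it was counted at 975, 2692 and 2092 in N0, with replicate 1 far below the others, and at 687, 636 and 777 in T0, all lower than N0. After Ag it was down to 195, 176 and 148 in NAg and 273, 317 and 192 in TAg, ranges that overlapped by 1 library. After PI it reached 8614, 6376 and 8815 in NPI and 2588, 2444 and 2467 in TPI. The change with Ag was -3.47 ± 0.34 in naive cells and -1.43 ± 0.32 in tolerized cells (adjusted p = 6.4e-07 and 0.0016), a difference of 2.04 ± 0.46 (adjusted p = 0.0067). The change with PI was 2.05 ± 0.29 and 1.84 ± 0.29 (adjusted p = 3.2e-05 and 8.8e-05), which did not pass the test for a difference (adjusted p = 0.78). With marker levels of other cells as covariates the rise in tolerized cells was 0.57 (adjusted p = 0.66) and no longer a call. Tolerized cells held less of it at rest (-1.46 ± 0.29, adjusted p = 0.0037) and after PI (-1.67 ± 0.28, adjusted p = 0.0004), and TAg:NAg was 0.58 ± 0.36 (adjusted p = 0.23).

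Dusp16, the other phosphatase of JNK and p38 here, rose with both stimuli and showed its own switch between the cell states. There were 100.05, 86.6 and 103 normalized counts in N0 and 107, 127 and 127 in T0, without overlap but close. Ag gave 634, 547 and 748 in NAg and less, 349, 473 and 372, in TAg. PI gave 1402, 1862 and 1703 in NPI and more, 4769.9, 4570.2 and 4397, in TPI. The lowest TPI library was above the highest NPI library by more than the whole NPI range. The log2 fold changes were 2.73 ± 0.14 and 1.72 ± 0.14 with Ag (adjusted p = 5.5e-13 and 1e-09) and 4.10 ± 0.14 and 5.25 ± 0.14 with PI (adjusted p = 2.2e-15 and 1.9e-17), in naive and tolerized cells. The response of tolerized cells was smaller than that of naive cells with Ag (difference -1.01 ± 0.20, adjusted p = 0.0012) and larger with PI (1.15 ± 0.20, adjusted p = 0.00027). TAg:NAg was -0.70 ± 0.12 and TPI:NPI 1.47 ± 0.11 (adjusted p = 0.00017 and 4.8e-09), and T0:N0 did not pass (0.31 ± 0.16, adjusted p = 0.19).

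Dusp14, an atypical phosphatase that can bind the T cell costimulatory receptor CD28, was almost silent at rest. The raw counts were 1, 4 and 2 in N0 and 8, 8 and 3 in T0. After Ag the normalized counts were 27.6, 19.97 and 11.0 in NAg and 19.8, 17.9 and 26.6 in TAg, which overlapped. PI brought 259, 274 and 263 in NPI and 1344, 1127 and 1302 in TPI, with every TPI library at more than 4 times the highest NPI library. The fitted change with PI was 6.74 ± 0.27 in naive and 7.75 ± 0.21 in tolerized cells (adjusted p = 3.7e-16 and 1.4e-19). Since the base is a few reads, the ratio of summed counts is given with its exact 95% interval, which covers counting error only: 113-fold (54.4 to 281) in NPI:N0 and 221-fold (142 to 368) in TPI:T0. With Ag the ratio was 8.19 (3.70 to 21.4) in naive and 3.77 (2.22 to 6.70) in tolerized cells, for fitted changes of 2.97 ± 0.44 and 1.89 ± 0.34 (adjusted p = 1.5e-06 and 3.1e-05). Of the cell state contrasts TPI:NPI passed the test (2.25 ± 0.13, adjusted p = 1.2e-11), and T0:N0 and TAg:NAg did not (adjusted p = 0.11 and 0.69). A difference between the cell states in the response to Ag or to PI was not detectable at this depth (adjusted p = 0.25 and 0.34).

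**Figure D3:**
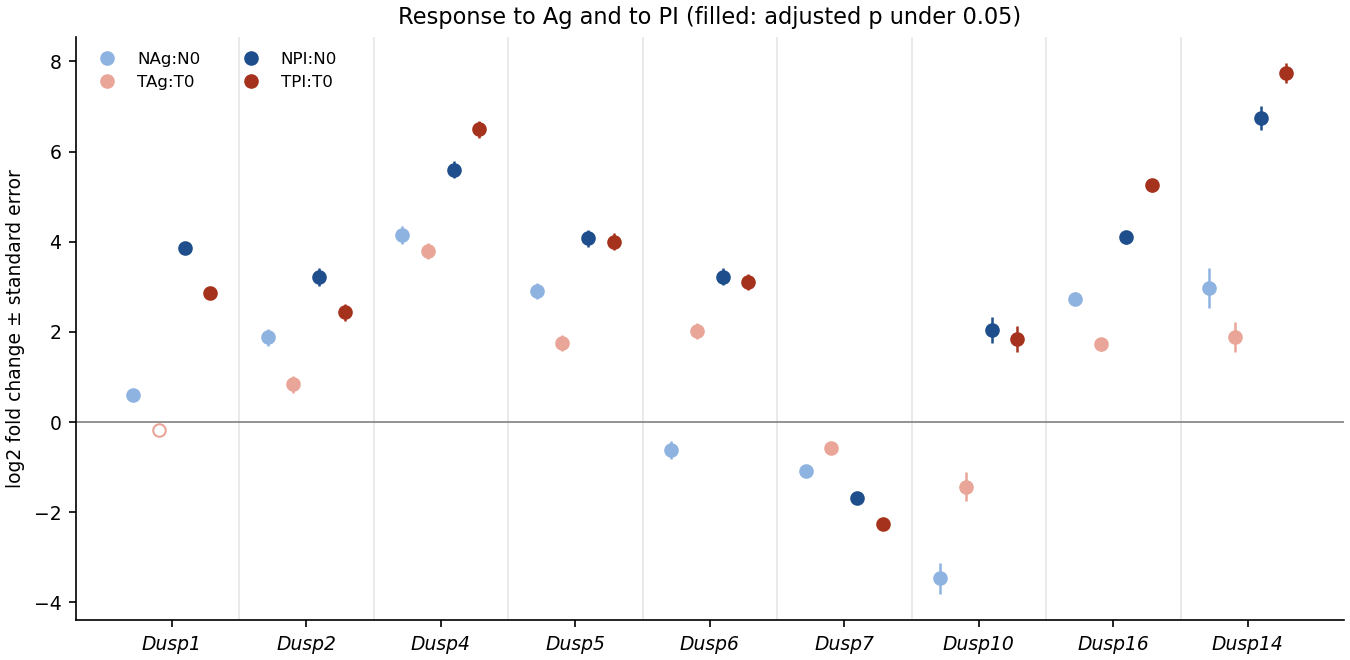
Log2 fold change ± SE of the 9 genes with Ag and with PI in naive (blue) and tolerized (red) cells, from the fit to all 18 libraries, with filled points at an adjusted p under 0.05. Dusp7 lies under 0 in all 4 contrasts, Dusp10 is under 0 with Ag and above it with PI, and Dusp6 is on opposite sides of 0 with Ag in naive and tolerized cells.

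The response to Ag compares a last injection of peptide with one of PBS in each cell state. What part of it came from the TCR of the T cells themselves was not tested. In naive cells 6 members rose (Dusp1, Dusp2, Dusp4, Dusp5, Dusp14 and Dusp16) and 3 fell (Dusp6, Dusp7 and Dusp10), where 32.1% of all tested genes rose and 33.4% fell. The member median was 1.88 on the log2 scale, against 0 over all tested genes. In tolerized cells 6 rose (Dusp2, Dusp4, Dusp5, Dusp6, Dusp14 and Dusp16) and 2 fell (Dusp7 and Dusp10), where 29.9% and 29.8% of all genes did, with a median of 1.72 against -0.05. Groups did not overlap for 9 members in NAg:N0 and 8 in TAg:T0, and for 68.1% and 64.5% of all genes. Counted in either direction, 9 members passed in NAg:N0 and 8 in TAg:T0, against 65.5% and 59.8% of all genes. The responses of the cell states differed for 7 members, against 21.7% of all genes. Dusp6, Dusp7 and Dusp10 came out higher in tolerized relative to naive cells (14.6% of all genes) and Dusp1, Dusp2, Dusp5 and Dusp16 lower (7.09%). Dusp6 is the member whose change passed the test in opposite directions in the 2 states.

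PI bypasses the receptor and asks what the genes can do when the pathways below it are driven directly. In both NPI:N0 and TPI:T0 8 members rose and Dusp7 fell. Among all genes 28.6% rose and 32.7% fell in NPI:N0, and 32.0% and 36.3% in TPI:T0. In either direction this made 9 members in each, against 61.4% and 68.3% of all genes. The member medians were 3.86 and 3.11 against -0.06 and -0.10 over all genes. All 9 members were without overlap in both, as were 66.4% and 72.5% of all genes. The response to PI differed between the cell states for 5 members (20.2% of all genes), with Dusp4 and Dusp16 higher (12.7% of all genes) and Dusp1, Dusp2 and Dusp7 lower (7.52%) in tolerized cells. The calls of Dusp2 (-0.78, adjusted p = 0.044) and Dusp4 (0.90, adjusted p = 0.035) depended on single libraries. In 12 fits that each left out 1 library, Dusp2 lost its call in 9 and Dusp4 in 7, at least 1 of them was lost in 11, and both held in 1, the fit without T0 replicate 2. Without T0 replicate 3 the Dusp2 difference was -0.40 (adjusted p = 0.0075), and without N0 replicate 1 the Dusp4 difference was 0.51 (adjusted p = 0.18).

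Set side by side, the stimuli separate the members further. The level after Ag was 44.6% of that after PI for Dusp5 in naive cells and 21.1% in tolerized cells, 38.8% and 8.69% for Dusp16, 36.6% and 15.4% for Dusp4, and 7.35% and 1.70% for Dusp14. Dusp6 and Dusp10 ran the other way, with 6.91% and 47.1% for Dusp6 and 2.18% and 10.4% for Dusp10. Dusp7, the member lower after PI than after Ag, stood at 152% and 326%. Dusp1 (10.4% and 12.3%) and Dusp2 (39.6% and 32.9%) differed less between the states. In NPI:NAg and in TPI:TAg 8 members were higher and Dusp7 was lower, with 33.5% and 31.5% of all genes higher and 31.0% and 32.3% lower. All 9 thus passed in both, against 64.4% and 63.8% of all genes in either direction. Dusp10 had the largest difference in NPI:NAg at 5.52 ± 0.35 (adjusted p = 8.2e-09) and Dusp14 in TPI:TAg at 5.86 ± 0.18 (adjusted p = 2.3e-18). The injected and the cultured cells differ in more than the stimulus, so these ratios compare the procedures as a whole.

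**Figure D4:**
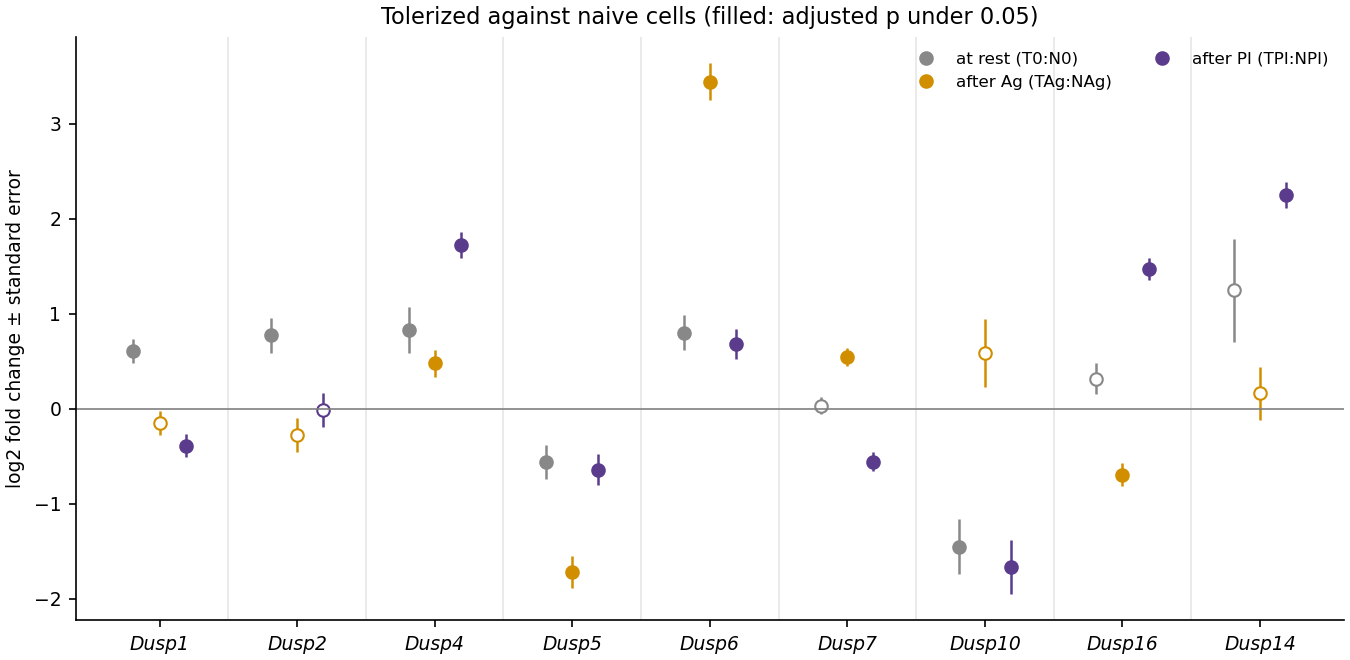
Log2 fold change ± SE of tolerized against naive cells at rest, after Ag and after PI for the 9 genes, with filled points at an adjusted p under 0.05. Dusp6 is above 0 in all 3 conditions with its peak after Ag, Dusp5 is under 0 in all 3, and Dusp16 and Dusp7 change sides between Ag and PI.

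Tolerance was compared with the naive state at rest and after each stimulus. In T0:N0 4 members were higher (Dusp1, Dusp2, Dusp4 and Dusp6) and 2 lower (Dusp5 and Dusp10), with 8.42% and 12.0% of all genes, and 5 did not overlap (35.0% of all genes). In TAg:NAg 3 were higher (Dusp4, Dusp6 and Dusp7) and 2 lower (Dusp5 and Dusp16), with 20.9% and 18.5% of all genes, and 6 did not overlap (47.7%). In TPI:NPI 4 were higher (Dusp4, Dusp6, Dusp14 and Dusp16) and 4 lower (Dusp1, Dusp5, Dusp7 and Dusp10), with 18.2% and 19.7% of all genes, and 8 did not overlap (50.5%). Dusp4 and Dusp6 were the members higher in tolerized cells in all 3 conditions, and Dusp5 was the one lower in all 3. In either direction 6 members passed at rest, 5 after Ag and 8 after PI, against 20.4%, 39.4% and 37.9% of all genes. Between the PI and the Ag gap 7 members differed (37.2% of all genes), with Dusp4, Dusp5, Dusp14 and Dusp16 shifted up after PI (17.2% of all genes) and Dusp6, Dusp7 and Dusp10 down (20.0%). The T0:N0 calls were the least firm of these, with 1 (Dusp1) when the fit held the 6 resting libraries alone and 3 (Dusp1, Dusp2 and Dusp6) with the presence of Y-linked reads as a covariate. The share of all genes called in these fits was not counted. The neutrophil markers given above were higher in the tolerized group of each comparison. With the neutrophil, macrophage and erythroid marker levels of each library as covariates, 0 members passed in T0:N0, 2 in TAg:NAg (Dusp6 at 2.68, adjusted p = 0.022, and Dusp16 at -1.30, adjusted p = 0.016) and 3 in TPI:NPI (Dusp4, Dusp14 and Dusp16). In the same fit the share of all genes called fell from 20.4% to 0.145% in T0:N0, from 39.4% to 4.14% in TAg:NAg and from 37.9% to 14.8% in TPI:NPI. These covariates run largely with the groups. The neutrophil sums did not overlap between the cell states at rest, after Ag or after PI. The marker levels and tolerance thus cannot be told apart in any of the 3 conditions.

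The rest of the MAPK pathway is described by lists of genes, of which a count is given with the median log2 fold change. Of 13 tested MAPK genes 6 rose and 4 fell in NAg:N0 (median 0.73), and 4 rose and 4 fell in NPI:N0 (-0.17). Over all tested genes 32.1% rose and 33.4% fell in NAg:N0 (median 0), and 28.6% rose and 32.7% fell in NPI:N0 (-0.06). Mapk6, an atypical MAPK, went from 996 ± 78.2 normalized counts in N0 to 13741 ± 711 in NAg (3.79 ± 0.10, adjusted p = 2.2e-20) and 14302 ± 812 in NPI (3.84 ± 0.10, adjusted p = 4.9e-20). Mapk14, which encodes p38 alpha, fell with Ag in naive cells from 2009 ± 161 to 537 ± 75.5 (-1.90 ± 0.09, adjusted p = 1.5e-15) and rose with PI in tolerized cells to 5419 ± 188 (1.58 ± 0.08, adjusted p = 3e-14). After Ag 7 MAPK genes were higher and 3 lower in tolerized than in naive cells, where 20.9% and 18.5% of all genes were (median 0.01), among them Mapk11, p38 beta (1.13 ± 0.11, adjusted p = 3.9e-08), and Mapk3, ERK1 (1.26 ± 0.19, adjusted p = 1.6e-05).

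Of 19 kinases upstream of the MAPKs, 10 rose and 8 fell in NAg:N0 (median 0.23), and 13 rose and 6 fell in NPI:N0 (0.31), against 32.1% and 33.4% of all genes in the first contrast and 28.6% and 32.7% in the second. Map2k3, a kinase of p38, rose from 324 ± 35.0 in N0 to 10799 ± 715 in NAg (5.06 ± 0.11, adjusted p = 2.2e-21), was lower in TAg than in NAg (-1.75 ± 0.09, adjusted p = 8.2e-13) and higher in TPI than in NPI (1.19 ± 0.09, adjusted p = 4.2e-10), the same directions as Dusp16. Map3k8, a kinase upstream of MEK and ERK, rose with Ag in both states (4.30 ± 0.11 and 3.28 ± 0.10, adjusted p = 2.5e-20 and 1.4e-18). Map2k6, the other main p38 kinase, fell in TAg:T0 by -6.41 ± 0.27 (adjusted p = 4.9e-16), to 1 to 3 raw counts per TAg library.

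Of 10 kinases downstream of the MAPKs 5 rose and 4 fell in NAg:N0 (median 0.18), with Mapkapk2 at 2.53 ± 0.10 and Mapkapk3 at 1.84 ± 0.08 (adjusted p = 2.7e-17 and 4.3e-16), both encoding kinases activated by p38. In NPI:N0 5 rose and 4 fell (0.33). The shares of all genes were 32.1% up and 33.4% down with Ag, and 28.6% and 32.7% with PI. Of 17 tested early response genes of MAPK signalling 13 rose and 1 fell in NAg:N0 (median 1.62), and all 17 rose in NPI:N0 (5.68), where 32.1% of all genes rose and 33.4% fell with Ag and 28.6% rose with PI. Fosl2, an AP-1 subunit, moved in the same directions as Dusp16 and Map2k3 between the cell states, with 28024 ± 2825 in NAg, 8047 ± 239.8 in TAg, 8762 ± 948 in NPI and 33963 ± 1785 in TPI (TAg:NAg -1.80 ± 0.09, adjusted p = 3.9e-13, and TPI:NPI 1.95 ± 0.09, adjusted p = 2.6e-13). Egr1, a zinc finger factor induced through ERK, was higher in TAg than in NAg (0.77 ± 0.11, adjusted p = 1.7e-05), as Dusp6 was. Most of its list did not share that direction. Of the 17 early response genes 3 were higher, 5 lower and 9 not called in TAg:NAg (median -0.29), where 20.9% of all genes were higher and 18.5% lower.

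Other phosphatase genes were counted in the same way, against 32.1% of all genes higher and 33.4% lower in NAg:N0, and 28.6% and 32.7% in NPI:N0. Of 15 tested further dual-specificity phosphatase genes 4 rose and 6 fell in NAg:N0 (median -0.26), and 4 rose and 4 fell in NPI:N0 (0.01). Dusp8, a phosphatase of JNK and p38 outside the 9, had at most 2 raw counts in any N0 library and 3 in any T0 library, 4 to 6 in NAg, and 268 to 481 in NPI and 674 to 1061 in TPI, and it was higher in TPI than in NPI (1.10 ± 0.14, adjusted p = 1.1e-06). Dusp18 passed in the same direction (1.35 ± 0.24, adjusted p = 8.5e-05). Of 9 tested MAPK phosphatases of other families 3 rose and 5 fell in NAg:N0 (median -0.38), and 6 rose and 2 fell in NPI:N0 (0.56). Ptpn7, a tyrosine phosphatase of ERK and p38 in blood cells, fell from 1296 ± 46.3 in N0 to 593 ± 64.8 in NAg (-1.13 ± 0.09, adjusted p = 5.9e-11) and stood at 1217 ± 112 in TAg, above NAg (1.04 ± 0.09, adjusted p = 5.4e-09), the same directions as Dusp7. In TAg:NAg 3 of these 9 genes were higher and 5 lower (median -0.20), where 20.9% and 18.5% of all genes were. Ppp2ca, the catalytic subunit of PP2A, rose in NAg:N0 (1.03 ± 0.07, adjusted p = 2.6e-12) and in NPI:N0 (1.17 ± 0.07, adjusted p = 6.8e-13).

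Likeness in pattern was described by the Pearson correlation of log2 values across the 18 libraries, which fall into the 6 groups and share their depth and scaling, so that it mostly restates the differences between groups. Closest to Dusp1 were Fos and Zfp36 (both r = 0.99), to Dusp2 Slc2a1 and the small nucleolar RNA SNORA14 (both 0.97), to Dusp4 Cd83 and Mapkapk3 (both 0.99), and to Dusp5 Csrnp1 and Nr4a1 (both 0.99). Dusp6 was most like Csf1 (0.96) and Twsg1 (0.94), Dusp7 like Shprh and Recql5 (both 0.99), and Dusp10 like Rab33b and Nrbp1 (both 0.98). For Dusp14 they were 2210403K04Rik and Tcfe3 (both 0.99), and for Dusp16 Wsb1 and Rbbp8 (both 0.99). Among the members themselves 9 of 36 pairs had r above 0.9, the closest being Dusp14 with Dusp16 (0.96) and Dusp4 with Dusp16 (0.96), while Dusp7 was negative with each of the others, down to -0.98 with Dusp16. Dusp4 with Dusp10 (0.18) was the loosest pair.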

How the data were processed

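CD4+ T cells of naive and tolerized mice were profiled by RNA-seq in 18 libraries, 3 in each of 6 groups, which were taken from the sample labels. Per the submitters' processing notes the authors used TopHat2 2.1.1, HTSeq 0.9.1 and the build mm9 (NCBIM37), and they deposited unnormalized read counts for 37991 Ensembl genes. The treatment of strand and of overlapping genes is not given in the sources used here. Symbols and positions came from GENCODE vM1 on that build, matching 37205 identifiers, and promoters from RefSeq on GRCm38.p6.

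In R 4.3.3, edgeR 4.0.16 scaled the counts by TMM and fitted 6 group means to all libraries. A gene was tested if its normalized counts averaged 3 or more in any group, which left 17240. The 12 contrasts, 3 of them interactions, used the robust quasi-likelihood F test with Benjamini-Hochberg adjustment over all tested genes, and an adjusted p under 0.05 was a call. Totals of 10758571 to 24119489 counts left Dusp14 with few reads at rest. The code was tested on simulated counts.

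The members, gene lists and tests were chosen with earlier results of these data known. Named are all 9 members in every contrast, up to 3 genes of a pathway list per contrast by smallest adjusted p, the 2 genes most correlated with each member (log2 values with a pseudocount of 1, normalized count averaging above 50 in any group), and genes overlapping a member. Alternatives were DESeq2 1.42.0 alone or together with edgeR's unadjusted p, DESeq2's size factors, no filter, fits to the compared groups alone, a replicate block, marker scores or Y-linked reads as covariates, and each library left out.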

Additional observations from a re-analysis of the deposited data

Results flagged for a closer look

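Listed here are the members whose response or whose gap between cell states differed between groups by an interaction test (edgeR's quasi-likelihood test, Benjamini-Hochberg adjustment over all tested genes), 7 for Ag, 5 for PI and 7 between the PI and the Ag gap. All values are log2 differences, and the adjusted p of each is given above or in this paragraph. In the response to Ag, tolerized against naive cells, Dusp6 differed by 2.64, Dusp10 by 2.04 and Dusp7 by 0.51, and Dusp5 by -1.16, Dusp2 by -1.05, Dusp16 by -1.01 and Dusp1 by -0.76. In the response to PI, Dusp16 differed by 1.15 and Dusp4 by 0.90, and Dusp1 by -1.001, Dusp2 by -0.78 and Dusp7 by -0.59. Between the gap after PI and the gap after Ag, Dusp16 differed by 2.16, Dusp14 by 2.08, Dusp4 by 1.25 and Dusp5 by 1.08 (adjusted p = 4.6e-09, 1e-05, 7.9e-05 and 0.0019), and Dusp6 by -2.76, Dusp10 by -2.25 and Dusp7 by -1.10 (adjusted p = 4.4e-07, 0.0015 and 9.8e-07). With marker levels of other cells as covariates the Ag set lost the calls of Dusp7 and Dusp10 (adjusted p = 0.093 and 0.053). The PI set kept the call of Dusp16 alone. The last set lost the calls of Dusp14 (0.49, adjusted p = 0.59) and Dusp5 (0.76, adjusted p = 0.17). In the same fit the share of all genes called fell from 21.7% to 16.1%, from 20.2% to 11.0% and from 37.2% to 24.2% in the 3 sets. The 3 sets share libraries and are not independent of each other. The PI set contains NPI:N0, where the effect of PI and that of the sex of the mice cannot be told apart.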

How the results depend on the processing

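Counts of members called stayed within 1.5 times under DESeq2, under DESeq2's size factors and under both tools together, and of 108 member fold changes 107 kept direction and side of the threshold with either of the first 2. The exception was Dusp2 in TPI:NPI, which has no call and lay at 0.0068 under DESeq2 and with its size factors and at 0.010 in the fit to the groups compared, against -0.01. T0:N0 fell from 6 members to 1 in the fit to the groups compared, to 3 with Y-linked reads as a covariate and to 0 with marker scores. The marker scores also took TAg:NAg from 5 to 2, TPI:NPI from 8 to 3 and the PI interaction (TPI:T0):(NPI:N0) from 5 to 1. In the PI interaction the share of all genes called fell with them from 20.2% to 11.0%. They called 60.0% of all genes in NAg:N0 but 32.7% in TPI:T0, where Dusp10 lost its call (0.57, adjusted p = 0.66), as it did in TPI:TAg (2.02, adjusted p = 0.11). Under them 78 of 108 fold changes held, and Dusp5 (0.12), Dusp10 (0.21) and Dusp16 (-0.34) in T0:N0, Dusp6 (0.29) and Dusp14 (-0.027) in the PI interaction and Dusp1 (0.32) in the gap between PI and Ag changed sign and had no call. With Y-linked reads Dusp14 in TAg:NAg became -0.10. The PI interaction also fell to 3 without a filter and in the fit to the groups compared. That last fit also called Dusp2 (-0.27, adjusted p = 0.0089) and Dusp10 (0.60, adjusted p = 0.027) in TAg:NAg, and Dusp2 in the gap between PI and Ag (0.28, adjusted p = 0.022). The cause was not tested. The share of all genes called was counted for the main fit and the fit with marker scores only.

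The same replicate numbers did not pair libraries, with correlations of deviations from -0.41 to 0.25 over 45 pairs and 7 above 0.1. With the replicate number as a block the PI interaction gave 3 members, as Dusp2 (-0.75, adjusted p = 0.054) and Dusp4 (0.89, adjusted p = 0.063) lost their calls, and no other call changed. Leaving out 1 library at a time gave 3 to 5 members in the PI interaction, 4 to 6 in T0:N0 and at most 1 more or fewer than all libraries in the other contrasts, and 768 of 810 fold changes held. Signs changed among uncalled values: Dusp5 (-0.25 to 0.19), Dusp10 (-0.52 to 0.12) and Dusp6 (-0.43 to 0.036) in the PI interaction, Dusp7 in T0:N0 (-0.10 to 0.10), and in TAg:NAg Dusp1 (-0.24 to 0.045) and Dusp14 (-0.13 to 0.50), and Dusp2 in TPI:NPI (-0.035 to 0.036). Depth limits Dusp14 at rest, with 1 to 8 raw counts per library.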
